A study of Mus musculus with 4 samples.

Results

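The genes described here are 7 receptors of the tumour necrosis factor (TNF) receptor superfamily (Fas, Tnfrsf1a, Tnfrsf1b, Cd27, Tnfrsf4, Tnfrsf9 and Tnfrsf18) and 3 TNF receptor-associated factors (Traf1, Traf2 and Traf4). They were taken by name, with every probe set of the array whose platform annotation gives that gene and no other. This gave 15 probe sets for 10 of the 8251 genes with a probe set of their own, of 12488 probe sets in all, and each gene ID matched the same symbol in the RefSeq gene table. RNA was measured on 4 Affymetrix arrays of thymocytes carrying both CD4 and CD8, isolated with microbeads from the thymi of female C3H/HeN mice 4 weeks of age. The cells were kept for 3 h at 5.0E+06 per ml in 3 ml, either in medium with 0.1% PBS or with 1e-07 M dexamethasone, a synthetic glucocorticoid. Each group had 2 arrays of RNA extracts that the design calls technical replicates, so all p-values measure the spread between extracts only and cannot speak for separate mice or cultures.

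TNF receptors are membrane proteins that cluster when a ligand of the TNF family binds. Death receptors such as Fas and the product of Tnfrsf1a carry a death domain that recruits FADD or TRADD and can start caspase-8 activation, whereas costimulatory receptors recruit Traf proteins and from there activate NF-kappaB and the MAP kinases. In the thymus these receptors are known for costimulation, for the growth of regulatory T cells and for their study in the death of immature T cells. Glucocorticoids are among the classic agents that kill double-positive thymocytes.

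Cd27 and Traf4 fell with dexamethasone, and none of the other members passed the test in either direction. Signals are MAS5 intensities in arbitrary units on a scaling common to all arrays. Fold changes and differences are on the log2(signal + 1) scale. A gene is said to have risen or fallen only when its brightest probe set passed limma with Benjamini-Hochberg adjustment over all 5582 genes tested, at a threshold of 0.05. Of the 10 genes, 9 were bright enough to be tested and 2 of these changed, beside 3.91% of all genes tested. These 2 fell, beside 2.02% of all genes, and 0 rose. At an unadjusted p under 0.05 in limma 0 were higher and 4 lower, beside 19.9% of all genes in either direction and 10.7% that were lower. In 5 of the 9 genes both dexamethasone arrays lay below both medium arrays, an arrangement found in 25.7% of all tested genes. In 0 of the 9 both lay above, but no share of all genes stands beside that 0. The median log2 difference was -0.31 over the 9 genes and 0.00 over all genes tested. Traf1 is among the 5 and the 4, and entered the test only through its medium arrays, so its low place is built in. Without Traf1 the counts were 4 and 3 of 8, with a median of -0.26. With probe sets tested one by one, 12 of the 15 were tested and 3 changed, beside 3.51% of all probe sets tested. All 3 fell (1.81% of all probe sets), and in 7 of the 12 both dexamethasone arrays were below both medium arrays (25.8% of all probe sets), or 6 of 11 without Traf1.

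**Figure D1:**
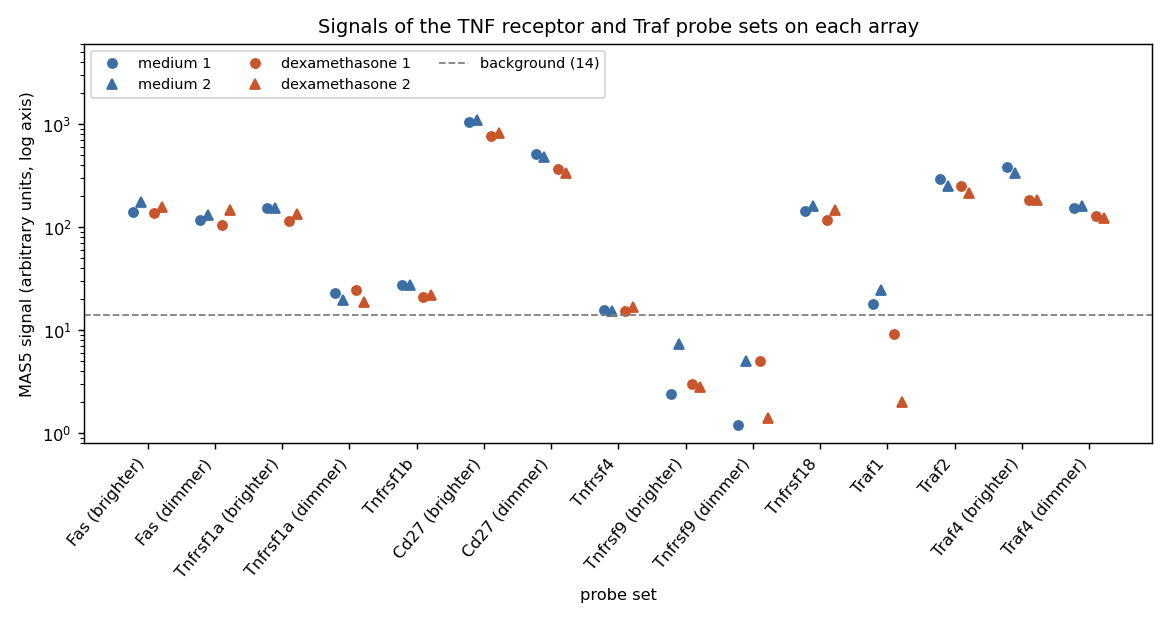
MAS5 signal on a log axis for each of the 15 probe sets, with circles and triangles for the arrays numbered 1 and 2, medium in blue and dexamethasone in orange, and a dashed line at the background of 14. Both Cd27 probe sets and both Traf4 probe sets have their dexamethasone points below their medium points, and the 2 Tnfrsf9 probe sets lie below the line on every array.

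Facts of the arrays that touch these values are few. Actin 3′ over 5′ control signals, a sign of RNA integrity, had ratios of 1.06 to 1.16 in medium and 1.24 to 1.40 with dexamethasone. The same ratios of Gapdh overlapped, at 0.838 and 0.845 in medium and 0.904 and 0.823 with dexamethasone. Their part in the results was not tested. The 9 bacterial and phage control transcripts added before hybridization were 1.37-fold higher on the dexamethasone arrays (0.46 on the log2 scale). Directions are therefore relative to the deposited scaling, and scaling to these controls moves the median of all genes to -0.45. Control probe sets for transcripts not added to the samples reached at most 14, which is used as the background level. Fkbp5, a glucocorticoid-induced co-chaperone that checks the treatment label, rose from 660 and 590 to 2382 and 2152. Cd4, at 423 to 508, and Cd8a, at 2345 to 2585, were well above background on all arrays.

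Traf4 changed most among the members that passed. It encodes an adaptor of the Traf family first found in breast carcinoma and known less for TNF receptor signalling than for roles in cell polarity, migration and signalling by TGF-beta receptors. Its brighter probe set (162482_at) gave 385 and 335 in medium and 184 and 184 with dexamethasone. The groups were far apart, the dexamethasone arrays being almost equal and the medium arrays less so. The mean fell from 360 ± 35.2 to 184 ± 0.566 (SD, n = 2), 1.95-fold, which is -0.96 ± 0.09 as a log2 difference (SE; adjusted p = 0.00415 in limma). The dimmer Traf4 probe set (100005_at) gave 154 and 163 in medium and 128 and 123 with dexamethasone. It was lower on both dexamethasone arrays too, but by a log2 difference of only -0.33 ± 0.09, and did not pass the probe set test (limma adjusted p = 0.112). The size of the Traf4 change thus depended on the probe set, and the mean of both gave -0.65. The call of the gene was lost without the first dexamethasone array (limma adjusted p = 0.0528, log2 difference -0.96) and in a fit without the variance trend (0.0751), within a range of 4.62e-10 to 0.0751 over 15 alternatives.

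Cd27 encodes a costimulatory receptor of most thymocytes and T cells, which binds CD70 and signals through Traf2 and Traf5. Both of its probe sets fell. The brighter (102282_g_at) gave 1058 and 1107 in medium and 767 and 820 with dexamethasone. The mean fell from 1082 ± 34.6 to 794 ± 38.0 (SD, n = 2), 1.36-fold, or -0.45 ± 0.07 in log2 units (SE; adjusted p = 0.0231 in limma). The dimmer Cd27 probe set (102281_at) gave 508 and 484 in medium and 369 and 334 with dexamethasone. It fell 1.41-fold, or -0.50 ± 0.08 in log2 units (adjusted p = 0.0284 in limma's probe set test). The groups did not overlap on either probe set, and each dexamethasone array was lower by more than the spread within a group. The call of the gene was lost when any array was left out, with limma adjusted p = 0.163 and 0.187 without the first and second medium array and 0.0914 and 0.0566 without the first and second dexamethasone array. It was also lost without a filter on dim genes (0.0510) and without the variance trend (0.157), while the log2 difference stayed between -0.90 and -0.40 over 15 alternatives.

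**Figure D2:**
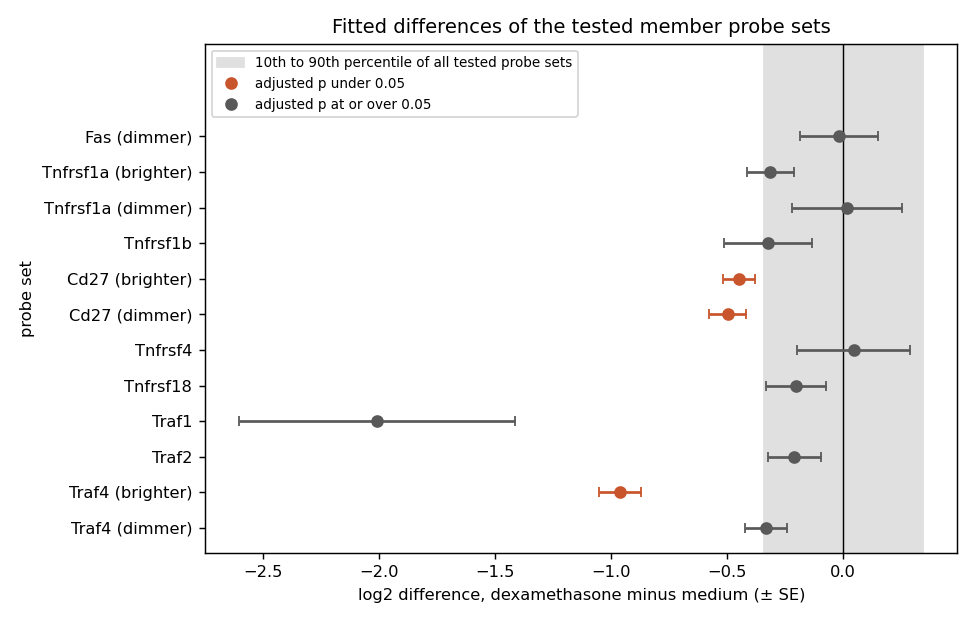
Fitted log2 difference (dexamethasone minus medium) with its standard error for the 12 tested probe sets, against the range from the 10th to the 90th percentile of all tested probe sets in grey (-0.34 to 0.34). The brighter Traf4 probe set at -0.96 and the Cd27 probe sets at -0.45 and -0.50 passed the test, while Traf1 at -2.01 has an error of 0.59 and did not.

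The bases upstream of these 2 genes are shown because Traf4 and Cd27 were the members that passed. They are from RefSeq (GRCm38.p6, a C57BL/6J genome, not the C3H/HeN strain of the cells), end just before the outermost annotated start of each gene and run 5′ to 3′ along its strand. Traf4 lies on the minus strand, with 221 bases at chr11:78165580-78165800, and Cd27 on the minus strand, with 141 bases at chr6:125237137-125237277. Capitals mark GC boxes (GGGCGG on either strand).
Traf4: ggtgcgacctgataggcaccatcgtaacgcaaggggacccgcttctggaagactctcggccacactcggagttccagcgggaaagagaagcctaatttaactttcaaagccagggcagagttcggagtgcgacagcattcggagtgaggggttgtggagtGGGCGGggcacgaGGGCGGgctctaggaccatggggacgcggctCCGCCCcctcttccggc
Cd27: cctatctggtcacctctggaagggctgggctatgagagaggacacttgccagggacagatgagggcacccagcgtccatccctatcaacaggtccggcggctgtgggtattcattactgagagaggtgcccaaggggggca
The stretches differed in composition, with 17 CG dinucleotides and 3 GC boxes upstream of Traf4 and 3 CG dinucleotides and 0 GC boxes upstream of Cd27.

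In the 250 bases before each RefSeq start, 11 windows covered the 10 genes, Tnfrsf9 having 2 starts. A GC box was found in 4 of these 11 windows, of Fas, Tnfrsf1b, Tnfrsf9 and Traf4, and in 32.7% of all 32851 windows of that length. The glucocorticoid response element searched (GNACA and TGTNC with 3 bases of any kind between them, both strands) was found in 0 of the 11 and in 0.387% of all windows, and 0 matches say only that these letters are not in these windows. The kappaB consensus was found in 1 of the 11, the second start of Tnfrsf9, and in 7.25% of all windows. TATAAA was found in 0 of the 11 and in 12.4% of all windows.

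Among the death receptors, Fas showed no direction. Fas triggers apoptosis when Fas ligand binds. On the probe set tested (102921_s_at, a suffix for probes that can match more than a single transcript) the signals were 119 and 133 in medium and 105 and 147 with dexamethasone, so the dexamethasone arrays lay on either side of the medium arrays. The log2 difference was -0.02 ± 0.17 (limma adjusted p = 0.968). A further Fas probe set, which the maker lists among its control probe sets and which was therefore not tested, gave 142 and 177 in medium and 138 and 156 with dexamethasone, again overlapping. The difference of Fas turned to 0.06 without the second medium array and to 0.22 without the first dexamethasone array, and neither passed.

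Tnfrsf1a, which encodes TNF receptor 1, the main death-domain receptor for TNF, gave 155 and 155 in medium and 116 and 133 with dexamethasone on its brighter probe set (92793_at). Both dexamethasone arrays were lower, with a log2 difference of -0.31 ± 0.10, and the gene did not pass (limma adjusted p = 0.159). Its dim probe set (161194_r_at, a suffix for relaxed design rules) gave 22.8 and 19.9 in medium and 24.9 and 18.7 with dexamethasone, with overlapping groups and a log2 difference of 0.02 ± 0.24. Tnfrsf1b, which encodes TNF receptor 2, has no death domain and binds Traf2. It was dim, at 27.4 and 27.3 in medium and 21.2 and 22.1 with dexamethasone. The groups did not overlap, but at this signal the fitted error was wide (-0.32 ± 0.19, limma adjusted p = 0.405).

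The remaining costimulatory receptors were dim or showed no separation. Tnfrsf18 encodes GITR, the glucocorticoid-induced TNF receptor-related protein, named for its induction by dexamethasone in a T cell hybridoma. Here it gave 145 and 160 in medium and 119 and 148 with dexamethasone. The groups overlapped, the second dexamethasone array lying between the medium arrays, and the log2 difference was -0.20 ± 0.13 (limma adjusted p = 0.446). Over 15 alternatives the difference of Tnfrsf18 ran from -0.65 to -0.04 and was never above 0. Tnfrsf4, which encodes OX40, was just above background, at 15.7 and 15.5 in medium and 15.3 and 17.0 with dexamethasone. Its log2 difference of 0.05 ± 0.24 had no stable sign and turned to -0.01 with arrays centred on their medians, -0.04 with quantile-normalized signals and -0.38 on the scale of the hybridization controls. Tnfrsf9, which encodes 4-1BB, was at background on every array, with signals of 2.4 to 7.4 and 1.2 to 5.1 on its 2 probe sets, and was not tested.

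Of the other adaptors, Traf2 encodes a RING-type ubiquitin ligase that brings cellular inhibitors of apoptosis to the receptors. It gave 294 and 250 in medium and 253 and 217 with dexamethasone. The groups overlapped slightly, and the log2 difference of -0.21 ± 0.11 did not pass (limma adjusted p = 0.372). Traf1, which lacks the RING finger and is known as a target gene of NF-kappaB, gave 18.1 and 24.9 in medium and 9.2 and 2.0 with dexamethasone. The medium arrays were above background and both dexamethasone arrays at background, so Traf1 was at least 1.54-fold lower (medium mean over 14). The fitted log2 difference of -2.01 ± 0.59 rests on values below background and is no estimate of size. It became -0.81 when 16 in place of 1 was added to the signals, and did not pass (limma adjusted p = 0.131). Traf1 entered the test only through its medium arrays, since its dexamethasone signals lie under the filter of 10.1.

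**Figure D3:**
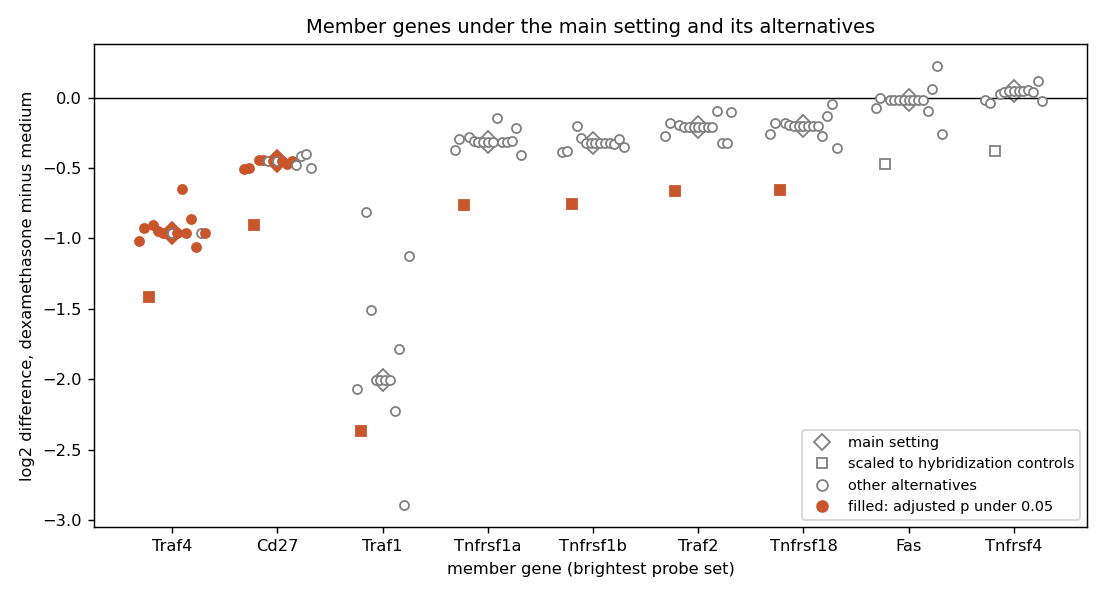
Log2 difference (dexamethasone minus medium) of the 9 tested genes under the main setting (diamond), scaled to the hybridization controls (square) and under the other alternatives (circles), filled where the adjusted p was under 0.05. Traf4 passed in 13 of 15 alternatives and Cd27 in 9 of 15, and the square is the lowest point of every gene but Traf1.

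Scaled to the hybridization controls, 7 of the 9 genes fell, all but Fas and Tnfrsf4, beside 44.3% of all genes. Traf1 is among the 7, and its low place is built in. The median of the members, Traf1 included, was then -0.76 and that of all genes -0.45, against -0.31 and 0.00 on the deposited scaling. Some members are neighbours in the RefSeq gene order. Tnfrsf4 and Tnfrsf18 have 0 protein-coding genes between them, and Cd27 and Tnfrsf1a have 3, among them the TNF family receptor gene Ltbr. Of these neighbouring members only Cd27 passed. Whether neighbours differed from each other was not tested.

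The rest of the pathway was measured in 4 further lists, written with earlier results of these data known. Of the 8 other TNF receptors measured, 6 were at background on every array and only Tnfrsf11a, which encodes RANK, was tested, at 15.4 and 12.4 in medium and 9.3 and 12.5 with dexamethasone (log2 difference -0.33 ± 0.31, 0 at an unadjusted p under 0.05 in limma). Of the 12 other Traf proteins and receptor adaptors 0 passed limma and 2 had an unadjusted p under 0.05, beside 19.9% of all genes, with a median of -0.01. The largest differences were -0.49 ± 0.13 for Trafd1, a negative regulator of Toll-like receptor signalling, and 0.40 ± 0.14 for Casp8ap2, which binds caspase-8. The close relatives Traf5 and Traf6 had log2 differences of 0.14 ± 0.21 and -0.12 ± 0.08. Among 20 tested genes of the signalling below the receptors, Tnfaip3, the NF-kappaB inhibitor A20, rose (1.03 ± 0.13, limma adjusted p = 0.0113) and Nfkbib, an inhibitor of NF-kappaB of the IkappaB family, fell (-0.45 ± 0.08, limma adjusted p = 0.0417), with a median of -0.01. In this list 7 of 20 had an unadjusted p under 0.05, against the same 19.9%. The call of Nfkbib was lost without any array (limma adjusted p = 0.118 to 0.233), after quantile normalization (0.0541), without the filter on dim genes (0.0635) and without the variance trend (0.139). That of Tnfaip3 was lost without the first medium array (0.0846), without the first and second dexamethasone array (0.0545 and 0.0709) and without the variance trend (0.108).

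Of the ligands of the members, Tnf, Fasl and Tnfsf4 (the ligand of OX40) were at background on every array, at 5.6 or less. Tnfsf9, the ligand of 4-1BB, gave 12.3 and 14.4 in medium and 4.0 and 3.7 with dexamethasone. It was above background on only 1 array and too dim to be tested. Lta, whose product binds both TNF receptors, gave 15.7 and 21.7 in medium and 37.4 and 27.6 with dexamethasone, all above background, and did not pass (limma adjusted p = 0.169). Tnfsf18, the ligand of GITR, had no probe set of its own by the annotation used here. Cd70, the ligand of Cd27, gave 11.7 and 14.5 in medium and 37.7 and 7.3 with dexamethasone, a spread within the dexamethasone group that held the medium values. Of the 4 ligands tested, Tnfsf11, which encodes RANKL, rose from 2.2 and 2.4 to 46.5 and 45.4, at least 3.28-fold. It passed (limma adjusted p = 0.00229), beside 1.88% of all genes that rose. Its medium signals lie under the filter of 10.1, so Tnfsf11 entered the test only through its dexamethasone arrays. Its high place is thus built in.

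**Figure D4:**
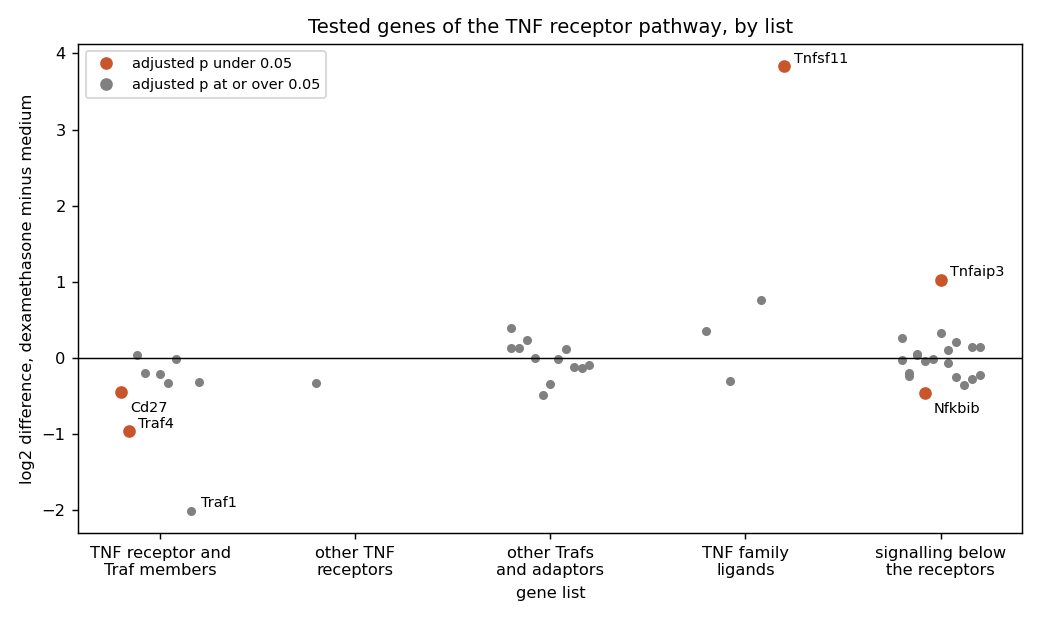
Log2 difference (dexamethasone minus medium) of each tested gene in the gene fit, by list, with orange for an adjusted p under 0.05. Cd27 and Traf4 lie below 0 in the first column, where Traf1 at -2.01 is lowest without passing, and Tnfsf11 and Tnfaip3 lie above 0.

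By the rule for likeness, the tested genes whose log2 signals over the 4 arrays, centred on their means, lay nearest to Traf1 were Col11a2, Sema4a and Prkar1b, at root mean square distances of 0.35, 0.43 and 0.48. None of these 3 passed (0 in limma, 2 at an unadjusted p under 0.05), and all were dim, with dexamethasone means of 16.5 or less. Nearest to Traf4, a search added after its values were seen, were Cbfa2t3 (0.04), Rragd (0.05) and H2-Ab1 (0.06). With 4 arrays in 2 groups such distances mostly restate the difference between the groups.

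These are bulk samples, in which fewer cells of a type and less RNA per cell cannot be told apart. Of the 10 markers of double-positive thymocytes measured, 10 were above background, with summed signals of 12884 to 13325 in medium and 12719 to 13605 with dexamethasone. These sums overlap, but 2 of the 10 markers fell and 0 rose, beside 2.02% and 1.88% of all genes. Ptcra, the pre-T cell receptor alpha chain, fell by 0.84 on the log2 scale (limma adjusted p = 0.0192). Cd8b1, the CD8 beta chain, fell by 0.33 (limma adjusted p = 0.0466). The same shares of all genes stand beside the calls in the lists below. Sums of the markers of other cell types differed between the groups too, given here with the number of markers above background on any array. Of 4 measured for regulatory T cells, in which OX40, 4-1BB and GITR are typical, 2 were above background (Ctla4 and Itgae), with Il2ra and Ikzf2 at background and summed signals of 74.7 and 74.7 against 99.7 and 128. Ctla4 rose (0.91 ± 0.16, limma adjusted p = 0.0352) and Itgae did not pass. Of 5 for mature single-positive cells 4 were above background, at 322 to 355 against 365 to 382, with S1pr1 at background. Il7r alone rose, from 49.4 and 58.0 to 147 and 139 (limma adjusted p = 0.00339), and the other 3 tested did not pass, with log2 differences of -0.39 for Itgb7, -0.37 for Klf2 and -0.09 for Ccr7. Of 5 for double-negative cells 2 were above background (Hes1 and Gfi1), at 269 to 276 against 174 to 192, with Il2ra, Cd44 and Kit at background. Gfi1, which makes up most of that sum, fell (-0.76 ± 0.08, limma adjusted p = 0.00811). Hes1 was higher and did not pass, at 25.1 and 28.8 in medium and 30.2 and 34.4 with dexamethasone. Kit, tested though at background, was higher too and did not pass (log2 difference 0.20 ± 0.29). Of 7 for B cells 6 were above background, at 1407 to 1430 against 1911 to 1932, with Cd22 at background. Ighm, which makes up most of that sum, rose (0.46 ± 0.06, limma adjusted p = 0.0123). Of 8 for myeloid and dendritic cells 5 were above background, at 220 to 225 against 173 to 189, with Lyz2, Itgam and Adgre1 at background. H2-Aa, the brightest of them, gave 122 and 116 in medium and 87.8 and 90.3 with dexamethasone. Of the 5 tested 0 passed, and 2 were higher and 3 lower. Of 4 for natural killer cells 1 was above background (Gzma), at 104 to 105 against 82.5 to 103. Of 6 for thymic epithelium only Cldn4 was, at 214 to 219 against 110 to 111, with Krt5, Krt8, Epcam, Foxn1 and Ccl25 at background. Cldn4 makes up most of that sum, at 203 and 210 against 87.4 and 97.8. It fell (-1.15 ± 0.10, limma adjusted p = 0.00307), while the epithelial markers at background were not tested. Of 2 for red cell precursors only Hba-a1 was, at 96.3 to 106 against 106 to 115. Their part in the falls of Cd27 and Traf4 was not tested.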

How the data were processed

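The authors deposited linear probe set intensities. MAS5 is the tool that the submitters' processing notes name; its version and settings are not given in the sources used here. The table held 0 columns of other samples. Of its 12488 probe sets, 66 controls were left out; 10833 of the rest named 1 gene, 396 several and 1193 none. Signals were used as log2(signal + 1), 1 being the 10th percentile of all values, rounded. Each gene was represented by its brightest probe set, and rows at or under the 40th percentile of mean log2 signal over all probe sets (a signal of 10.1) were left out. Dexamethasone was compared with medium with lmFit and eBayes with a variance trend in limma 3.58.1 (R 4.3.3) for 5582 genes and again for 6701 probe sets, with two-sided p-values adjusted by Benjamini-Hochberg. The fit was tested on simulated data. Background is the highest of 19 control probe sets for bacterial and yeast transcripts (median 1.85). The members, 4 pathway lists and 9 marker lists were chosen with earlier results of these data known. Named are all members, up to 4 passing genes of each pathway list (or the 2 with the largest difference), Fkbp5, and the 3 genes nearest to the member with the largest difference. Marker genes, and pathway genes named as relatives, ligands of members or neighbours, were chosen after their values were seen. Alternatives were 3 scalings, 2 pseudocounts, 2 filters, averaged probe sets, a replicate block, no variance trend and leaving out each array. A filter percentile over genes was added after seeing the data. The number of arrays limits the precision.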

Additional observations from a re-analysis of the deposited data

How the results depend on the processing

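Counts of changed genes depended on the settings. They are given for the member genes (2 of 9), the member probe sets (3), the other pathway genes (3) and all genes (218). In that order, scaling to the hybridization controls gave 7, 9, 14 and 2514, and no variance trend gave 0, 0, 1 and 19. Traf1, whose low place is built in, is among the 7 genes and the 9 probe sets. Without the variance trend 5 of the 9 member genes had an unadjusted p under 0.05 in limma, beside 977 of all 5582 genes. Of all genes, 105 rose and 113 fell on the deposited scaling, 92 and 162 with arrays centred on their medians, and 43 and 2471 scaled to the hybridization controls. No filter on dim genes gave 1, 1, 2 and 116. These are out of 10 member genes, 14 member probe sets, 52 other pathway genes and 8251 genes tested. Leaving out an array gave 0 to 1, 0 to 1, 1 to 2 and 32 to 78. The 0 for the member genes and the member probe sets came without the first dexamethasone array. The replicate numbers did not pair the extracts in the labels (correlation of same-numbered deviations 0.0723), and the replicate block gave 2, 3, 5 and 353. Fas turned to 0.06 and 0.22 on leaving out an array, within -0.2593 to 0.2244 over the 4 such fits. Tnfrsf4 turned to -0.0145, -0.0366 and -0.38 with median centring, quantile normalization and scaling to the hybridization controls, and to -0.0263 without the second dexamethasone array (0.1168 without the first). The other 7 tested genes, Traf1 among them, were lower in every alternative that tested them. Traf1 was tested in 12 alternatives, and in those with a filter on dim genes its low place is built in. The cause of the changes between settings was not tested. Signals near background limit Tnfrsf4, Tnfrsf9 and Traf1.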

Other observations

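The lymphotoxin genes were chosen after their values were seen, and none passed a test. Ltb, which encodes the membrane anchor lymphotoxin beta, gave 1649 and 1538 in medium and 1322 and 1274 with dexamethasone, a log2 difference of -0.30 ± 0.07 that did not pass (limma adjusted p = 0.0660, lower in 2 of 2 arrays). The log2 difference of Lta, which encodes the soluble partner lymphotoxin alpha, was 0.77 ± 0.26 and did not pass either (limma adjusted p = 0.169), and the difference between Ltb and Lta was not tested. Ltbr, which encodes their receptor, gave 18.1 and 15.3 in medium and was at background with dexamethasone, at 6.1 and 5.1, at least 1.19-fold lower, and was too dim to be tested.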
